A study of Mus musculus with 2 samples.

Results

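The genes of 8 proteins that carry retinoids or fatty acids were followed, namely *Rbp3*, *Rbp4*, *Crabp1*, *Crabp2*, *Rlbp1*, *Fabp3*, *Fabp5* and *Fabp7*. They were chosen by symbol, with earlier results of these data known. All 8 were found once each among the 28692 genes of the deposited tables. The retinas were taken at E14.5 from mice of the strain Tg(Lhx4::EGFP)KN199Gsat/Mmucd, called *LHX4::GFP* here. In this line a BAC (a large genomic transgene) drives GFP from *Lhx4* regulatory DNA. Retinas of 2 litters were pooled and sorted into LHX4::GFP+ cells, which the labels call cone photoreceptors, and LHX4::GFP− cells, the other retinal cells. Both gates therefore come from tissue with the same transgene. Each gate gave 1 droplet library, so a difference between gates has no replicate check and no p-value is given. The intervals below, at 95% confidence, cover counting error only.

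Retinoids and long-chain fatty acids dissolve poorly in water and travel bound to carrier proteins. RBP4 carries retinol in blood and RBP3 carries retinoids in the space around photoreceptor outer segments. Within cells, CRABP1 and CRABP2 bind retinoic acid, RLBP1 binds retinaldehyde in glia and pigment epithelium, and the FABP proteins bind fatty acids, with FABP5 also able to take up retinoic acid. Retinoic acid is made and degraded in separate zones of the embryonic eye, and retinoids later form the chromophore of the opsins.

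A UMI marks 1 captured mRNA molecule, and levels are given as CPM, the UMIs of a gene per 1000000 UMIs of the cells concerned. After filtering on 250 to 3500 genes per cell, 3689 GFP+ cells with a median of 3894 UMIs and 3389 GFP− cells with a median of 8848 UMIs remained. The libraries shared 20 cell barcodes. The upper limit removed 23.7% of the GFP− cells and 1.05% of the GFP+ cells, and values without it are given where it matters. Cells were placed in groups by UMIs of marker genes, none of which is a carrier. Cone markers placed 97.1% of the GFP+ cells (3582), but only 1.98% of the GFP− cells (67). The other GFP− groups were 1607 multipotent progenitor-like cells, 735 neurogenic progenitor-like cells, 475 ganglion-like cells and 364 amacrine- and horizontal-like cells, referred to below by those names. A further 82 GFP− cells passed no marker rule and 59 were mixed, passing several. The orders of groups below leave these out unless they are named. The photoreceptor genes *Otx2* and *Crx*, which the grouping did not use, had a UMI in 99.1% and 94.0% of the GFP+ cone-marker cells. In the multipotent cells *Otx2* had a UMI in 5.10% and *Crx* in 0.809%. The defining pigment epithelium gene *Rpe65* had no UMI in either gate, and the 6 pigment epithelium markers together reached 11.5 CPM in the GFP+ and 1.30 CPM in the GFP− library, with no cell holding 5 or more of their UMIs. Endothelial markers summed to 9.48 CPM in the GFP+ and 64.0 CPM in the GFP− library, with *Cdh5* at 0 in both and 6 GFP+ and 65 GFP− cells holding 5 or more of their UMIs. Microglia markers summed to 27.0 CPM in the GFP+ library, where *Aif1* and *C1qb* were at 0, and to 8.51 CPM in the GFP− library, with 0 and 3 such cells. The part of such cells in the levels below was not tested.

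*Rbp3* lies at chr14:33954003-33964216 on the plus strand of GRCm38 and encodes a protein that photoreceptors secrete. Of the reference promoter windows for the genes described here, 1 held the letters TAATCC, the core recognized by the photoreceptor homeodomain factors OTX2 and CRX. That window, of *Rbp3*, is shown. The window, from RefSeq on build GRCm38, is chr14:33953922-33953951 on the plus strand, with the core in capitals as it reads on the opposite strand:

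Rbp3: ttgaattagacaGGATTAaaggcttagcag

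The capitals begin 69 bases before the transcript start. The search covered 250 bases before to 50 bases after each start, on both strands, in 7 windows of 6 genes, and TAATCC stood in 7.06% of 32851 such windows of the genome. TAATTA, a general homeodomain core with the same first letters, was found in 5.29% of all windows and in none of the 7. A match describes the letters and is not a measured binding site. *Crabp2* and *Fabp5* had no window. The windows of *Rbp4* and *Fabp7*, which were also higher in the GFP+ gate, held no TAATCC.

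The first comparison asked in which gate each carrier transcript lay. *Rbp3*, *Rbp4* and *Fabp7* were higher in the cone gate, and *Crabp1*, *Crabp2*, *Rlbp1*, *Fabp3* and *Fabp5* were higher in GFP− cells. Counting genes with at least 50 UMIs and at least a 2-fold difference in CPM, 3 of the 8 were higher in GFP+, beside 21.3% of all 12825 genes tested, and 5 of the 8 were higher in GFP−, beside 14.2%. None of the 8 was between these limits. The median gene was itself 0.30 higher in GFP+ on the log2 scale. Counted as UMIs per cell, with no scaling to depth, that median was -0.78 and the log2 ratio of *Rbp3* moved from 7.30 to 6.22, of *Rbp4* from 6.52 to 5.44, of *Fabp7* from 3.78 to 2.70 and of *Fabp5* from -1.38 to -2.46, and none of the 8 turned direction.

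The highest ratio was that of *Rbp3*, which had 2437 UMIs in GFP+ cells (157 CPM) and 30 in GFP− cells (0.997 CPM), a ratio of 158 (110 to 234). *Rbp4*, the gene of the plasma retinol carrier, had 5429 UMIs in GFP+ cells (350 CPM) and 115 in GFP− cells (3.82 CPM), a ratio of 91.6 (76.2 to 111). *Fabp7*, the brain-type fatty-acid binding protein best known from radial glia, was 13.7-fold higher in GFP+ (12.9 to 14.7). On the other side, *Crabp2* had 179 UMIs in GFP+ cells (11.5 CPM) and 9374 in GFP− cells (311 CPM), 27.0-fold higher in GFP− (23.3 to 31.5). Its log2 ratio moved from -4.75 to -4.06 without the upper gene limit. *Fabp5* was present in both gates, at 317 CPM in the GFP+ and 822 CPM in the GFP− library, 2.60-fold higher in GFP− (2.52 to 2.68). The related gene *Crabp1* stood at the limit, at 92.6 and 190 CPM, 2.05-fold higher in GFP− (1.93 to 2.17). *Rlbp1* and *Fabp3* were near the floor of the data, with 2 and 4 UMIs in GFP+ and 50 and 123 UMIs in GFP− cells. Their ratios, 12.9-fold (3.38 to 109) and 15.8-fold (6.03 to 59.1) higher in GFP−, were correspondingly wide.

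**Figure D1:**
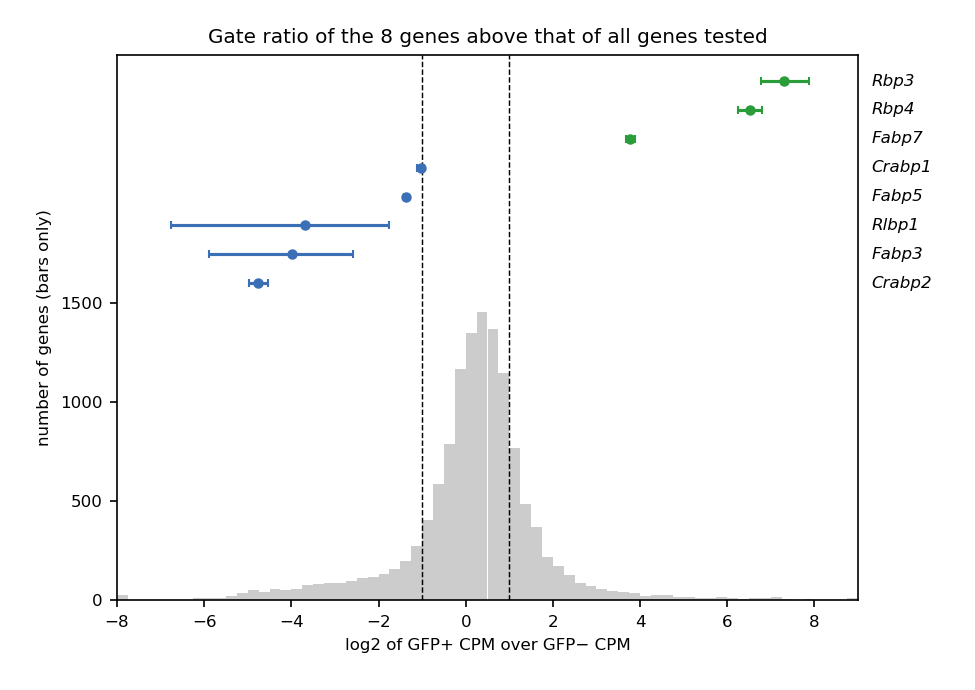
The x axis is the log2 ratio of GFP+ over GFP− CPM. Grey bars count the 12825 genes tested (y axis), points above them are the 8 carrier genes with their 95% counting intervals, and dashed lines mark a 2-fold difference. The outermost bars also hold the genes beyond them. *Rbp3* (158-fold), *Rbp4* (91.6-fold) and *Fabp7* (13.7-fold) lie far to the right of the bulk of genes, *Crabp2* far to the left, and *Crabp1* on the left dashed line.

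These gate ratios mix cells of several kinds. When only GFP+ cone-marker cells were set against GFP− cells without cone-marker cells, the log2 ratio of *Rbp3* was 8.91, of *Rbp4* 7.35, of *Fabp7* 4.53 and of *Crabp2* -5.84. The levels were next read group by group. Both extracellular carriers were highest in GFP+ cone-marker cells, and the 57 GFP+ cells that passed no marker rule had 137 CPM of each. *Rbp3* reached 161 CPM in GFP+ cone-marker cells (155 to 168) and 55.4 CPM in GFP− cone-marker cells (33.8 to 85.5). It was at 1.12 CPM in neurogenic, 0.392 CPM in amacrine- and horizontal-like and 0.0664 CPM in multipotent cells. Neighbours in this order were not separated by counting error, and neurogenic and multipotent cells were not compared directly. No UMI was seen in 475 ganglion-like cells of 4911269 UMIs, which allows up to 0.611 CPM. A UMI of *Rbp3* was found in 44.9% of GFP+ cone-marker cells (43.3% to 46.6%) at a median of 3884.5 UMIs, and in 35.7% once each cell was thinned to 3000 UMIs. In ganglion-like cells, with a median of 10648 UMIs, 0 of 475 cells allow a share of cells with a UMI of up to 0.632%, which does not limit the share that express the gene.

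*Rbp4*, at chr19:38116629-38125281 on the minus strand, had 362 CPM in GFP+ (353 to 372) and 136 CPM in GFP− cone-marker cells (100.3 to 179). It followed at 3.06 CPM in multipotent and 2.39 CPM in neurogenic cells, which could not be separated, and at 0.407 CPM in ganglion-like and 0.392 CPM in amacrine- and horizontal-like cells. The transcript was in 58.1% of GFP+ cone-marker cells (50.7% after thinning) and in 0.421% of ganglion-like cells. Detection of the 2 carriers in the same cell was also read. Among thinned GFP+ cone-marker cells, *Rbp4* was found in 53.0% of those with *Rbp3* (50.1% to 55.9%) and in 49.5% of those without it (47.3% to 51.6%).

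The retinoic acid carriers *Crabp1* and *Crabp2* differed in their leading group. *Crabp2* (chr3:87948666-87953376, plus strand), whose protein hands retinoic acid to its nuclear receptors, was highest in multipotent cells at 436 CPM (426 to 447). It then fell through neurogenic (253 CPM), ganglion-like (148 CPM), amacrine- and horizontal-like (124 CPM), GFP− cone-marker (30.4 CPM) and GFP+ cone-marker cells (5.50 CPM). Each step exceeded counting error under the upper gene limit. Without that limit, ganglion-like (146 CPM) and amacrine- and horizontal-like cells (145 CPM) were nearly level. *Crabp2* was broadly spread, with a UMI in 93.1% of multipotent cells and in 68.1% after thinning, against 1.01% of thinned GFP+ cone-marker cells. The GFP+ cone-marker level depended on the upper gene limit. The upper gene limit removed 33 GFP+ cone-marker cells with a median of 12132 UMIs, and these alone held 81 *Crabp2* UMIs (195 CPM), next to 82 in the 3582 cells kept. With them the GFP+ cone-marker level was 10.6 CPM. The GFP− cone-marker level, from 11 UMIs, was 6.56 CPM when each marker minimum was raised by 1 UMI.

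*Crabp1* (chr9:54764748-54773110, plus strand), thought to retain retinoic acid in the cytoplasm, was highest in ganglion-like cells at 353 CPM (337 to 370.5), then in multipotent (198 CPM) and neurogenic cells (133 CPM). GFP+ (72.8 CPM) and GFP− cone-marker cells (60.9 CPM) could not be separated, and amacrine- and horizontal-like cells were lowest at 24.3 CPM. The high level in ganglion-like cells came from a minority. Only 32.0% of these cells had a *Crabp1* UMI, against 66.0% of multipotent cells, and 323 of the 475 had none while 31 had 10 or more and the highest cell had 183. Just 8 cells held at least 50% of the UMIs. In multipotent cells the same share was spread over 239 cells and no cell had more than 16.

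**Figure D2:**
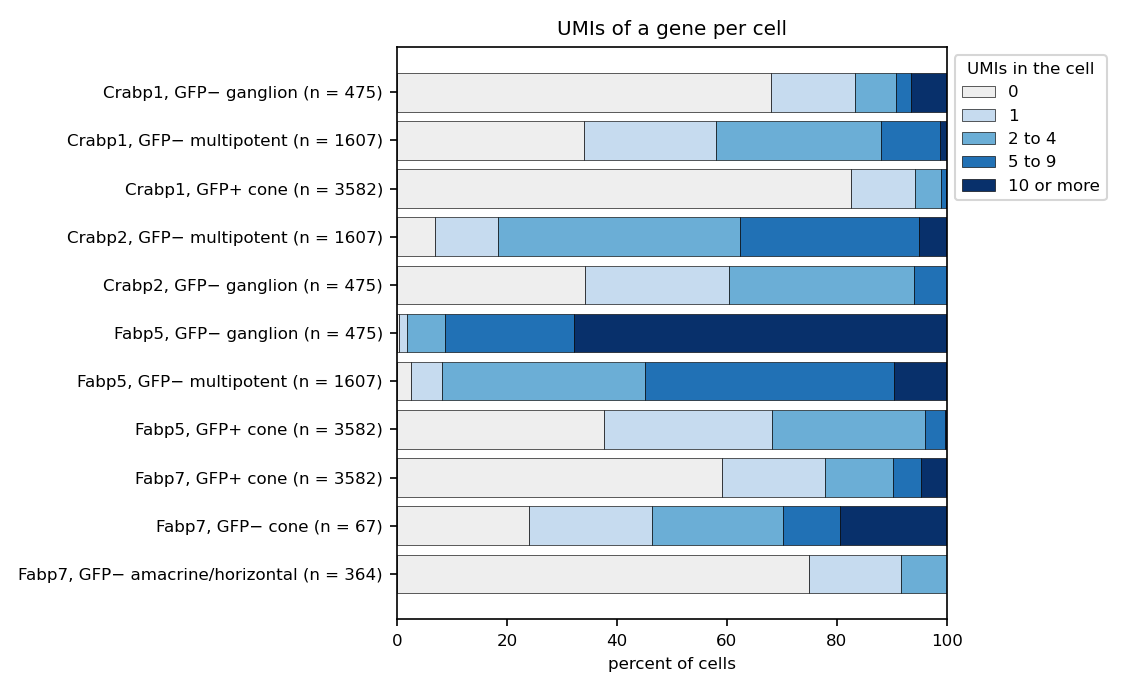
Bars show the percent of cells (x axis) of a group with 0, 1, 2 to 4, 5 to 9 or 10 or more UMIs of a gene, as deposited. *Crabp1* was absent from 323 of 475 ganglion-like cells but reached 10 or more UMIs in 31 of them, whereas *Fabp5* was at 10 or more in 322 of them.

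*Crabp1* was higher still in ganglion-like cells with more genes. The gene limit removed 566 ganglion-like GFP− cells, 54.4% of that group, and in them *Crabp1* stood at 1315 CPM (1291 to 1338), with 5 or more UMIs in 189 cells and a highest count of 349. Without the limit the group of 1041 cells had 977 CPM, 233 cells (22.4%) with 5 or more UMIs, and 31 cells that held at least 50% of all its *Crabp1* UMIs. The gate ratio on the log2 scale moved from -1.04 to -2.12. In other GFP− groups *Crabp1* over the limit was lower in multipotent (161 beside 198 CPM in those kept) and neurogenic cells (104 beside 133 CPM). It was higher in 19 amacrine- and horizontal-like cells (124 beside 24.3 CPM). The GFP+ library held 3 ganglion-like cells, with 256, 35 and 1 of its 1435 *Crabp1* UMIs.

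Within the kept ganglion-like cells, *Crabp1* was read beside early precursor genes. Cells without a UMI of *Atoh7*, *Neurog2*, *Dll1* and *Dll3* (137) had 733 CPM, and cells with one (338) had 193 CPM, a ratio of 3.79 (3.44 to 4.18) that was 3.15 after thinning. As 8 of the 475 cells held at least 50% of the *Crabp1* UMIs, this interval does not cover on which side those cells fell. Of the 7516 genes with at least 50 UMIs in the kept ganglion-like cells, 4.15% were at least 2-fold higher without an early UMI and 2.82% with one. *Sncg*, a synuclein and a marker of the group, was 3.58-fold higher in the cells without an early UMI and *Gap43*, a growth-cone protein gene, 2.61-fold higher. In contrast *Crabp2* was at 162 and 143 CPM, not separated by counting error. Cells were then split by *Crabp1* itself, a split chosen after its values were seen. Counts were as deposited, where deep cells meet a minimum of UMIs more easily. The 44 cells with 5 or more *Crabp1* UMIs had 4453 CPM of *Sncg*, against 1177 CPM in the 323 cells with none, and 349 against 45.5 CPM of *Ly6h*. They had 120 against 26.6 CPM of the nuclear receptor gene *Nr2f2*. Lower in them were *Atoh7* (22.0 against 216 CPM), *Gadd45a* (81.9 against 978 CPM) and *Dlx2* (9.98 against 143 CPM). *Pou4f2*, which starts the ganglion cell program and is also a marker of the group, was 3.16-fold lower (2.36 to 4.33). *Sncg* and *Pou4f2* both count toward entry to the group, so their values here are not independent of the grouping. *Fabp3* was 3.77-fold higher (1.86 to 7.39), and *Fabp5* did not separate, at 1550 and 1471 CPM.

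*Rlbp1* (chr7:79374870-79387048, minus strand), which in the mature retina marks Müller glia, was barely detected. Multipotent cells had 44 of its UMIs, or 2.92 CPM (2.12 to 3.92), in 2.61% of cells. Neurogenic cells had 5 UMIs, ganglion-like and GFP+ cone-marker cells 1 each, and the other GFP− groups none. The other GFP+ UMI was in 1 of 14 multipotent cells of that gate. Below the multipotent GFP− cells, groups next to each other in level were not separated by counting error, and groups further apart were not compared.

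Of the fatty-acid carriers, *Fabp3* and *Fabp5* were highest in ganglion-like cells and *Fabp7* was not. *Fabp3* (chr4:130308595-130315463, plus strand), the heart-type protein, was highest in ganglion-like cells at 11.4 CPM (8.61 to 14.8), and 9.68% of them had a UMI. Neurogenic (2.55 CPM), multipotent (2.46 CPM) and amacrine- and horizontal-like cells (1.96 CPM) followed without separation, and GFP+ cone-marker cells had 3 UMIs, or 0.201 CPM. Without the gene limit the ganglion-like level was 19.1 CPM. Within multipotent cells *Fabp3* was 6.17-fold lower in the 743 cells with mitotic transcripts than in the 864 without (2.39 to 20.3). It had 5 and 32 UMIs there. Of the 10379 genes with at least 50 UMIs in these cells, 0.954% were at least 2-fold lower and 2.11% at least 2-fold higher. *Fabp3*, with 37 UMIs, was not among those genes. After thinning the *Fabp3* counts were 0 and 10, and the interval of their ratio included 1. A pseudogene of the same name, *Fabp3-ps1*, was counted separately with 25 UMIs in GFP+ and 16 in GFP− cells, and reads that fit both copies cannot be assigned.

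*Fabp5* (chr3:10012548-10016607, plus strand), the epidermal-type protein, was present throughout. It was highest at 1483 CPM in ganglion-like (1449 to 1518) and 1203 CPM in amacrine- and horizontal-like cells (1161 to 1247). Neurogenic cells had 750 CPM, multipotent cells 571 CPM and GFP− cone-marker cells 518 CPM, the last pair not separated. GFP+ cone-marker cells were lowest at 302 CPM (293 to 311). A UMI was present in 97.4% of multipotent cells, 99.8% of ganglion-like cells and 62.5% of GFP+ cone-marker cells, and in 78.7%, 96.4% and 54.1% after thinning. In ganglion-like cells 322 of 475 had 10 or more UMIs. In multipotent cells it was 1.21-fold lower in cells with mitotic transcripts (1.16 to 1.26), at 516 and 624 CPM.

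*Fabp7* (chr10:57784881-57788450, plus strand) was high in cone-marker cells of both gates and in a small GFP+ group. The 20 neurogenic cells of the GFP+ gate had 1167 CPM (1005 to 1349). Only 9 of them had a UMI, and 1 cell held 51 of the 184 UMIs. GFP− cone-marker cells had 1140 CPM (1033 to 1256) and a UMI in 76.1% of cells, while GFP+ cone-marker cells had 447 CPM (437 to 458) and a UMI in 40.9%. The 82 GFP− cells that passed no marker rule had 292 CPM. Amacrine- and horizontal-like GFP− cells followed at 51.7 CPM and neurogenic GFP− cells at 30.5 CPM. Ganglion-like (5.70 CPM) and multipotent cells (3.92 CPM) could not be separated. Those last 2 groups had 28 and 59 UMIs, with highest counts per cell of 1 and 11. A UMI was seen in 5.89% of ganglion-like and 2.12% of multipotent cells, at medians of 10648 and 9426 UMIs. Both groups lie in the GFP− library, which had 32.9 CPM of *Fabp7* against 452 CPM in the GFP+ library. Their shares therefore set no background for GFP+ cells. Within the GFP+ group the counts were strongly uneven. Of the 3582 cells, 2117 had none, 166 had 10 or more, the highest had 136, and 137 cells held at least 50% of the 6665 UMIs.

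**Figure D3:**
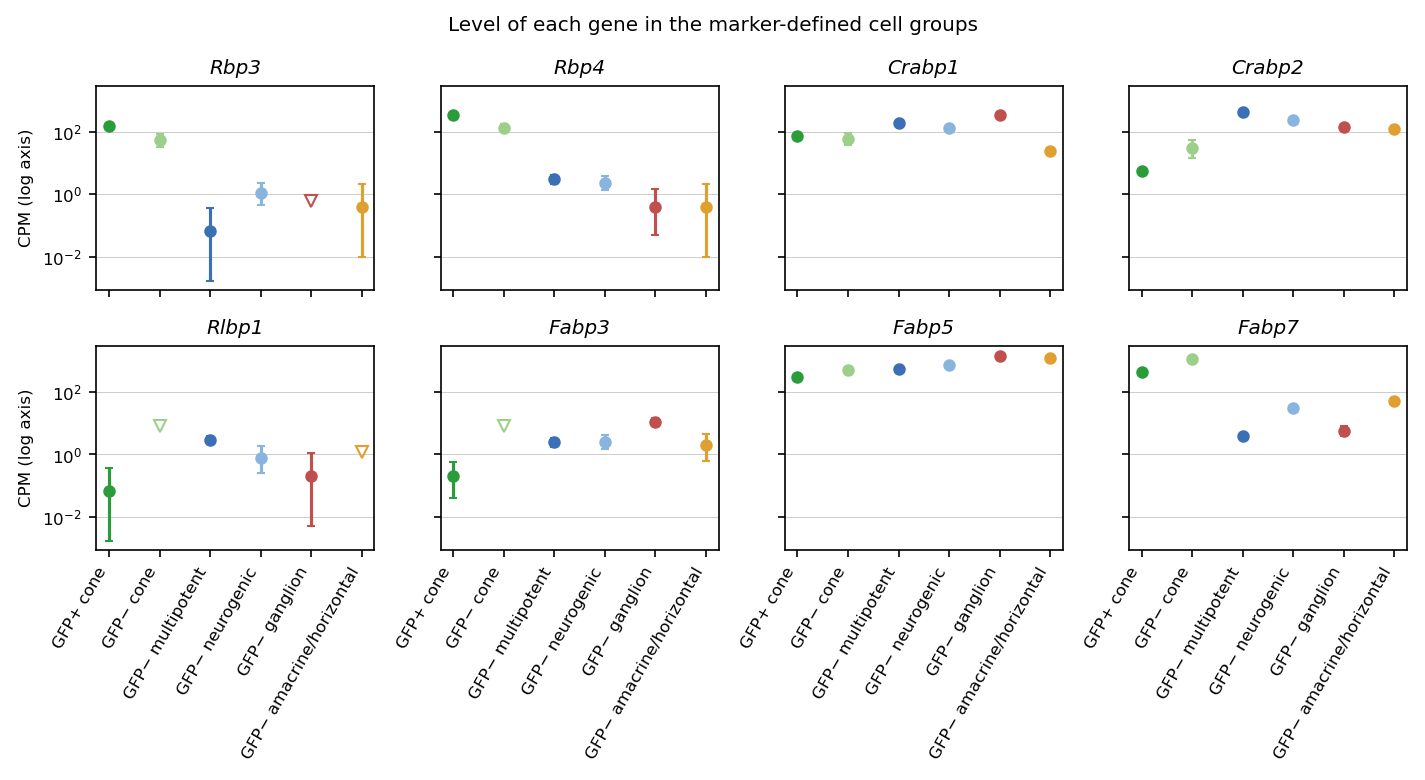
Each panel gives the CPM of a gene on a log axis in 6 cell groups, as points with 95% Poisson intervals. Open triangles mark groups with no UMI, drawn at the level of 3 counts. GFP+ cells outside the cone-marker group, and GFP− cells that passed none or several of the marker rules, are not drawn. Of the groups drawn, *Rbp3* and *Rbp4* are highest in the cone-marker cells of both gates, *Crabp2* is highest in multipotent cells (436 CPM) and *Fabp5* stays between 302 and 1483 CPM throughout.

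The cone-marker cells of the 2 gates were then compared directly. GFP+ cells had more *Rbp3* (2.92-fold, 1.88 to 4.78) and *Rbp4* (2.67-fold, 2.02 to 3.62), and GFP− cells had more *Fabp7* (2.55-fold, 2.30 to 2.82), *Crabp2* (5.53-fold, 2.66 to 10.4) and *Fabp5* (1.72-fold, 1.47 to 1.99). *Crabp1* was not separated (1.19-fold, 0.785 to 1.91). At least a 2-fold difference was seen toward GFP+ in 2 of the 6 carriers with at least 50 UMIs, beside 17.7% of 10804 genes. Toward GFP− it was seen in 2, beside 3.12%. Of those 2, *Crabp2* rested on 11 UMIs in 7 GFP− cells, with 5 of the UMIs in 1 cell. It fell below 2-fold under the raised marker minimum. *Fabp7* had 412 UMIs in the 67 GFP− cells, and 13 cells with 10 or more held 73.5% of them. Its interval does not cover this spread between cells. The 50 UMIs were summed over GFP+ cells with 14899678 UMIs and GFP− cells with 361336 UMIs. A gene could pass on GFP+ counts alone, so the 2 shares of all genes depend on that minimum. The cells also differed in other genes. *Pcp4*, a calmodulin-binding protein gene, was 9.83-fold higher in GFP+ cells (3.83 to 36.1), with 4 UMIs in GFP− cells. *Gngt2*, the cone transducin gamma gene and itself a cone marker of the grouping, was 3.04-fold higher in GFP+ cells. The proneural gene *Atoh7* was 3.02-fold higher in GFP− cells. *Crx* was at 841 and 805 CPM. With 67 GFP− cells, of which 54 had an early precursor UMI, these values describe a small sample. A further 57 GFP+ cells passed no marker rule, with a median of 2888 UMIs. *Fabp7* was at 733 CPM (618 to 863) in them.

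Among GFP+ cone-marker cells, 1860 had a UMI of an early precursor gene and 1722 had none. *Fabp7* was 2.81-fold higher in the former (2.65 to 2.98), at 624 and 222 CPM, and 2.28-fold after thinning. It was the only carrier at least 2-fold higher there, where 0.362% of all genes were, and none with at least 50 UMIs was 2-fold lower, beside 0.502%. *Crabp1* was 1.34-fold higher as well (1.18 to 1.52). *Rbp3* was lower in the early cells, at 146 and 182 CPM (ratio 0.801, 0.739 to 0.868). *Rbp4* was at 342 and 389 CPM (ratio 0.879, 0.833 to 0.928), a difference that was not separated after thinning (0.948, 0.888 to 1.01).

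Cells with a UMI of *Opn1sw*, the S-opsin gene (151 cells), had 211 CPM of *Rbp3* against 159 CPM in the 3431 others (1.32-fold, 1.10 to 1.58). *Fabp7* was lower in them, at 294 and 454 CPM, and *Rbp4* was not separated, at 368 and 362 CPM. Splitting by *Pcp4*, chosen after seeing the data, gave another pattern. The 391 cells with a UMI had 423 CPM of *Rbp4* against 355 CPM, while *Fabp7* was lower, at 225 and 475 CPM (ratio 0.475, 0.427 to 0.528), where 1.65% of genes were at least 2-fold lower and 0.437% higher, and *Crabp1* was 42.4 and 76.5 CPM. *Rbp3* did not separate on this split. In the 643 cells with at least 2 UMIs of amino-acid stress genes (*Slc7a3*, *Chac1*, *Trib3*, *Atf3*, *Ddit3*, *Asns* and *Sesn2*), *Rbp4* was 1.20-fold higher (1.12 to 1.28). *Fabp7*, *Fabp5* and *Crabp1* were lower in those cells, with ratios of 0.744, 0.806 and 0.751.

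**Figure D4:**
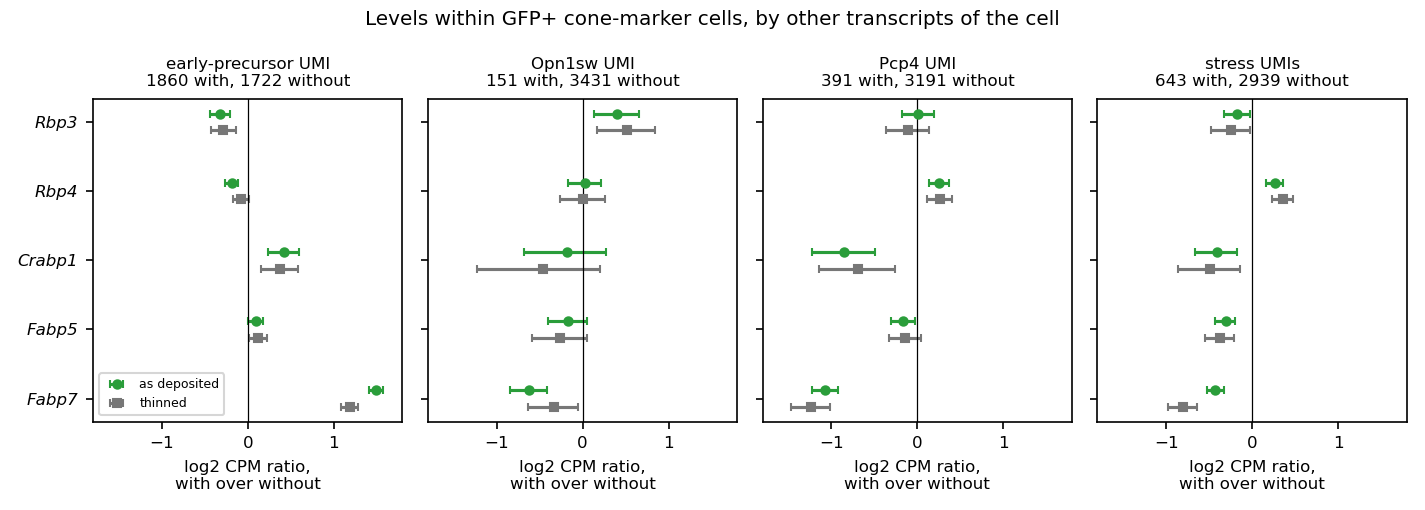
For GFP+ cone-marker cells, the x axis is the log2 ratio of CPM in cells with over cells without a given transcript, with 95% counting intervals, for counts as deposited (circles) and thinned to 3000 UMIs (squares). *Fabp7* is to the right for early-precursor UMIs (2.81-fold) and to the left for the 3 other splits, the interval of *Rbp3* lies to the right of 0 only for *Opn1sw*, and *Rbp4* is to the right for *Pcp4* and stress UMIs.

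*Fabp7*-rich cells were also described by the other carriers. That split, and the split by *Crabp1* below, were chosen after seeing the data. The share of all genes at least 2-fold apart was not counted for either. The *Fabp7* split used counts as deposited, where deep cells meet a minimum of UMIs more easily. The 348 GFP+ cone-marker cells with 5 or more *Fabp7* UMIs had 155 CPM of *Rbp4* against 407 CPM in the 2117 cells with none (ratio 0.381, 0.337 to 0.429). *Rbp3* was at 110 and 173 CPM, *Crabp1* at 86.2 and 63.3 CPM and *Fabp5* at 348 and 290 CPM. The cone receptor gene *Thrb* was at 388 and 668 CPM, *Atoh7* at 132 and 38.0 CPM, while *Rxrg* was not separated at 259 and 242 CPM. For *Crabp1*, the 207 cells with 2 or more UMIs had 119 CPM of the progenitor gene *Ccnd1* against 8.21 CPM in the 2960 cells with none. They also had 19.1 against 3.69 CPM of *Crabp2* and 23.3 against 119 CPM of *Pcp4*. After thinning the first 2 differences were no longer seen (*Ccnd1* 12.6 and 9.20 CPM, *Crabp2* 2.53 and 2.75 CPM), and the *Pcp4* difference was (32.8 and 120 CPM).

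The neurogenic GFP− cells were split by *Crx*. This split was chosen after seeing the data. Of the 735 neurogenic cells, the 61 with a *Crx* UMI had 272 CPM of *Fabp7* and the 674 without had 11.5 CPM, a ratio of 23.6 (17.4 to 32.3) and of 26.8 after thinning (17.4 to 41.7). At least a 2-fold excess in the *Crx* cells was seen in 6.40% of 8207 genes, and a deficit of that size in 10.7%. *Neurod4*, a proneural gene, was 33.5-fold higher in them and *Otx2* 3.18-fold higher, while *Ccnd1* was 6.49-fold lower. *Rbp3* had 5 UMIs in the 61 cells (11.0 CPM) and 2 in the 674, and *Rbp4* had none in the 61. *Crabp2* was lower in the *Crx* cells, at 149 and 261 CPM (ratio 0.571, 0.441 to 0.728), *Fabp5* was 1.20-fold higher, and *Crabp1* was not separated.

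Neurogenic cells with mitotic transcripts (400) had less of several carriers than those without (335). *Fabp7* was at 10.6 and 58.4 CPM, *Crabp2* at 218 and 302 CPM, *Crabp1* at 110 and 165 CPM and *Fabp5* at 705 and 814 CPM, the last not separated after thinning. At least a 2-fold deficit was seen in 2.13% of genes and an excess in 4.08%. In multipotent cells the same split left *Crabp1* (195 and 200 CPM) and *Crabp2* (427 and 445 CPM) unseparated, although *Crabp1* was lower in the mitotic cells after thinning (ratio 0.843, 0.725 to 0.978). Multipotent cells were also compared by dorsal genes (*Tbx5*, *Aldh1a1* and *Tbx3*, 228 cells) and ventral genes (*Vax2*, *Aldh1a3* and *Vax1*, 426 cells), since the enzymes that make retinoic acid differ along that axis. The retinoic acid carriers hardly differed, with *Crabp2* at 405 CPM in dorsal and 451 CPM in ventral cells (ratio 0.898, 0.828 to 0.974, not separated after thinning) and *Crabp1* at 208 and 187 CPM (1.11, 0.987 to 1.25). In amacrine- and horizontal-like cells with an early precursor UMI (204), *Crabp2* was 2.67-fold (2.04 to 3.54) and *Fabp7* 2.42-fold higher (1.60 to 3.74) than in the 160 without, where 2.45% of genes were at least 2-fold higher and 2.21% lower.

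The carriers were placed beside 30 other retinoid genes, of which 17 had enough UMIs. Of the 17, 5 were at least 2-fold higher in GFP+, 7 in GFP− and 5 in neither, beside 21.3% and 14.2% of all genes in the 2 directions, with a median log2 ratio of 0.40 beside 0.30 for all genes. *Cyp26a1*, whose enzyme degrades retinoic acid, was at 1.10 CPM in the GFP+ and 43.4 CPM in the GFP− library, with 78.2 CPM in multipotent cells. The synthesis genes *Aldh1a3* (2.00 and 43.1 CPM) and *Aldh1a1* (3.68 and 42.8 CPM) were likewise lower in GFP+. On the GFP+ side were *Stra6*, the cell-surface receptor for RBP4 (44.9 and 7.91 CPM), the retinoid X receptor gene *Rxrg* (246 and 4.32 CPM, itself a cone marker of the grouping), the retinoid transporter gene *Abca4* (134 and 6.15 CPM) and the retinal opsin gene *Rgr* (81.2 and 2.29 CPM). *Ttr*, whose protein partners RBP4 in blood, had 0 UMIs in GFP+ and 7 in GFP− cells.

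Of 26 further fatty-acid genes, 18 had enough UMIs, and 7 were at least 2-fold higher in GFP+, 4 in GFP− and 7 in neither (median log2 ratio 0.26), beside the same 21.3% and 14.2%. *Elovl4* and *Elovl2*, which lengthen very-long-chain fatty acids, were at 291 and 31.4 CPM and at 67.7 and 8.61 CPM. *Scd2*, a desaturase (74.5 and 217 CPM), and *Dbi*, which binds acyl-CoA (185 and 376 CPM), were higher in GFP−. *Fabp1*, *Fabp2*, *Fabp4*, *Fabp9* and *Pmp2* had no UMI in either gate. *Fabp12* was low but higher in GFP+, with 75 UMIs (4.84 CPM) there and 1 UMI (0.0332 CPM) in GFP− cells.

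Finally, the profiles of 5 of the carriers over 9 gate-and-group sums of at least 50 cells were matched to those of 10542 genes by Pearson correlation of log2(CPM + 1). The sums share the 2 libraries and their depths, so this is a description. *Rbp3* was most like *Mak* (r = 0.993), *Gm9918* and *Nrl*. *Rbp4* was most like *Agpat3* (r = 0.988), *Cngb3* and *Ttc8*. *Fabp5* was most like *Cox6b1* (r = 0.977), *Prmt1* and *Calm3*, and *Fabp7* most like *Fyco1* (r = 0.986), *Tceanc* and *Abca4*. The closest match of *Crabp1*, *Ntrk2*, was weaker (r = 0.909), followed by *Shc1* and *Bbip1*.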

How the data were processed

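Dissociated retinal cells of 1 pool were sorted by GFP and sequenced with a 3′ droplet kit, 1 library per gate. The deposited values are UMI counts for each gene in each cell, raw and whole, which the authors made with Cell Ranger 2.1.1 on build mm10 (GRCm38) per the submitters' processing notes. They sum to 16010591 UMIs over 3728 GFP+ cells and to 46778924 UMIs over 4445 GFP− cells.

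A cell was kept if it had over 250 and under 3500 genes and less than 0.25 of its UMIs from mitochondrial genes, which left 15503658 GFP+ and 30094636 GFP− UMIs. Depth sets the counting precision and, through the UMI and gene minimums, also which cells enter a group and what share has a UMI. A count of 0 was bounded by 3 counts. Doublet calling with Scrublet (scanpy 1.11.5, rate 0.03) marked 4 GFP+ and 55 GFP− cells. Of these, 3 GFP+ and 0 GFP− cells passed the filters above and were left in. Groups were set by UMI minimums, tested in this order. Cone markers were *Thrb*, *Rxrg*, *Gngt2*, *Gnb3*, *Gnat2* and *Lhx4* (3 UMIs over 2 genes), amacrine and horizontal markers *Tfap2a*, *Tfap2b*, *Ptf1a* and *Prdm13* (2 UMIs), and ganglion markers *Pou4f1*, *Pou4f2*, *Isl1*, *Rbpms*, *Sncg* and *Nefm* (3 UMIs over 2 genes). Cells meeting several of these rules were set apart as mixed (1 GFP+ and 59 GFP− cells). The rest were neurogenic by *Olig2*, *Neurog2* and *Atoh7* (2 UMIs), else multipotent by 4 markers that include *Hes1*, *Nr2e1* and *Sfrp2* (3 UMIs over 2 genes). Mitotic cells had 2 UMIs of *Ccnb1*, *Cdc20*, *Plk1*, *Cenpf* and *Ube2c*, and dorsal or ventral cells 2 UMIs of that list and 0 of the other.

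UMIs were summed over cells and given as CPM with exact Poisson intervals, shares with exact Clopper-Pearson intervals and ratios with exact conditional intervals at a confidence level of 0.95. The ratio intervals were tried on sums simulated with counting error only. That checks the calculation and not the spread between cells or libraries. For shares, each cell was thinned to 3000 UMIs, which left out 344 GFP+ and 20 GFP− cells. With 1 library per gate no test between gates was possible. Alternatives were no upper gene limit, doublets left out, TMM factors of edgeR 4.0.16, UMIs per cell, per-cell CPM, other UMI minimums and stricter marker rules.

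The carriers, the gene lists and the markers were chosen with earlier results of these data known. Named genes are the 8 carriers, the listed genes with at least 50 CPM in a gate or group and a 2-fold gate difference, and for each carrier with at least 200 UMIs the 3 most alike genes. *Ttr*, *Pmp2* and the *Fabp* genes named from the fatty-acid list are given outside this rule. A marker, a listed gene and the matches of 1 carrier are not reported here. Other named genes describe a split and were chosen after their values were seen. Coordinates are from GENCODE on GRCm38. Software was R 4.3.3 and Python 3.11.15 with scipy 1.17.1, pandas 2.3.3, numpy 2.4.6 and matplotlib 3.10.9.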

Additional observations from a re-analysis of the deposited data

How the results depend on the processing

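Every gate ratio kept its direction under the alternatives run, and the cause of each change in size was not tested. The gate ratios listed below are those that left the counting interval of the main ratio. Others changed within that interval. On the log2 scale *Rbp3* was 7.86 and *Fabp3* -4.90 without the upper gene limit, and *Rlbp1* was -4.77 and *Fabp3* -5.06 as UMIs per cell. Log2 ratios of GFP+ over GFP− were, without the upper gene limit, 6.87 for *Rbp4*, -2.12 for *Crabp1*, -4.06 for *Crabp2*, -1.55 for *Fabp5* and 4.27 for *Fabp7*. With TMM factors, *Rbp4* had 6.19, *Crabp1* -1.36, *Crabp2* -5.08, *Fabp5* -1.70 and *Fabp7* 3.45. As UMIs per cell, *Rbp3* had 6.22, *Rbp4* 5.44, *Crabp1* -2.11, *Crabp2* -5.83, *Fabp5* -2.46 and *Fabp7* 2.70. As the mean of per-cell CPM, *Rbp3* had 6.55, *Rbp4* 6.03, *Crabp1* -1.17, *Crabp2* -5.34, *Fabp5* -1.42 and *Fabp7* 3.02. For GFP+ cone-marker cells over GFP− cells without cone-marker cells, chosen after seeing the data, *Rbp3* had 8.91, *Rbp4* 7.35, *Crabp1* -1.39, *Crabp2* -5.84, *Fabp5* -1.45 and *Fabp7* 4.53.

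The median over all genes was -0.026 with TMM factors and -0.78 as UMIs per cell. With a minimum of 1 UMI, 22.3% of genes were 2-fold higher in GFP−. In ganglion-like cells, levels without the gene limit were 977 CPM for *Crabp1*, 19.1 CPM for *Fabp3* and 1660 CPM for *Fabp5*, and the stricter marker rules gave 1537 CPM for *Fabp5*. *Crabp2* in GFP+ cone-marker cells was at 10.6 CPM without the gene limit and 4.36 CPM under the stricter rules, which gave 6.56 CPM in GFP− cone-marker cells. Leaving out called doublets removed 3 GFP+ and 0 GFP− cells, so it says nothing about stability. No paired analysis was possible because each gate has 1 library. Depth limits *Rlbp1* and *Fabp3*, with at most 123 UMIs in a gate.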
